A study of Rattus norvegicus with 24 samples.

Results

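The hypertrophic zone of the rat tibial growth plate was compared with the proliferative zone on 10 of 24 Affymetrix expression arrays, 5 from each zone. Arrays of the zones share biological replicate numbers in the labels, each taken here as 1 animal. The members described here are the 31042 non-control probe sets of the array. A probe set is a group of short oligonucleotides read as 1 value, and some carry several gene symbols or none. The animals were male rats, 7 days (1 week) old and not castrated; the labels name no treatment, strain or allele. Zones of the proximal tibial growth plate were cut out by hand from frozen sections 60 µm thick, and 50 to 100 ng of total RNA per zone was amplified in a pair of rounds before hybridization. Resting zone (5 arrays), transition zone (5 arrays) and epiphyseal cartilage (4 arrays) of the same age were used for the spread between arrays and as neighbouring levels; the labels of the transition and epiphyseal arrays are worded differently, give no sex, so that a batch and those zones cannot be told apart. Cells of other kinds are not removed by a cut made by eye, and in such bulk tissue fewer cells of a type cannot be told apart from less RNA per cell.

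In the growth plate, chondrocytes divide in columns in the proliferative zone, leave the cell cycle, and then enlarge in the hypertrophic zone, where they make collagen X, mineralize their matrix and attract blood vessels. Indian hedgehog (Ihh), secreted by chondrocytes that have begun to enlarge, keeps younger chondrocytes dividing through the receptor Patched, the transducer Smoothened and the Gli transcription factors, and maintains parathyroid hormone-related protein, which holds back further enlargement. At the far side of the hypertrophic zone the cartilage is resorbed and replaced by bone, so that vessels, marrow cells, osteoclasts and osteoblasts lie directly next to the oldest chondrocytes.

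Both zones were described with lists of defining genes. The lists were chosen with earlier results of these data known, so they are no independent check of the labels. Over all genes 22.4% had no overlap between the zones, 10.3% were called higher and 8.95% lower. The 7 tested markers of hypertrophic chondrocytes were all higher in the hypertrophic arrays, with no overlap between zones, and their summed signal ran from 113302 to 242183 in the hypertrophic arrays and from 9516 to 18324 in the proliferative arrays. Of 9 general chondrocyte markers, 2 were called lower in the hypertrophic arrays (Sox6 and Matn1) and none higher, by adjusted or unadjusted p below 0.05 in limma. The dimmer probe set of Sox6 was not called and had the opposite sign, at 0.77 (adjusted p = 0.0766). Summed signal of the 9 markers was 215334 to 521543 in the hypertrophic and 213245 to 483843 in the proliferative arrays. Of 8 markers of cycling cells, 4 were called lower in the hypertrophic arrays and all 8 had a lower mean there. Pcna was not among those 4 but was called lower without the hypertrophic array of animal 4 (-1.24, adjusted p = 0.000862).

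A call, throughout, is an adjusted p below 0.05 (Benjamini-Hochberg over all tested probe sets, limma with the animal as a block) together with a fold of at least 2; "rose" and "fell" are used of calls alone, hypertrophic relative to proliferative. Values called signal are MAS5 signals in arbitrary units, and every difference is one of log2(signal + 16), with its standard error, so differences of dim genes are understated. Summarized over probe sets, the zones separated on the first principal component of the 10 arrays, which held 46.4% of the variance (proliferative arrays at -70.6 to -54.8, hypertrophic arrays at 46.3 to 68.9). The hypertrophic array of animal 4 stood apart from the other hypertrophic arrays: it had the highest levels of bone, osteoclast and fibroblast markers, given with those markers below, and results that rest on it are given with and without it. The 3′ to 5′ signal ratio of Gapdh, which grows as RNA is more degraded, was 2.96 ± 0.536 on the log2 scale (SD, n = 5) in hypertrophic and 2.67 ± 0.337 in proliferative arrays (exact sign-flip test, two-sided p = 0.1875, 1 of 4 quality measures tested, with a smallest possible p of 0.0625).

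The zones differed in a large part of the transcripts that could be measured. Of 19237 probe sets that passed the filter on low signal (62% of the non-control sets), 3589 were called (18.7%), 1847 higher (9.6%) and 1742 lower (9.06%) in the hypertrophic zone. The rises were larger than the falls: 573 probe sets were at least 4-fold higher and 239 at least 4-fold lower, and at 16-fold the numbers were 41 and 10. Of the 3589 called sets, 3266 moved the same way in 5 of 5 animals, and 2575 had no overlap between the 5 arrays of each zone, against a background of 19.7% of all tested sets without overlap. Both counts come from the values that made the calls, so they describe the calls and lend them no separate weight. For movement in 5 of 5 animals, the share over all tested sets is not given here. The median difference over all tested sets was -0.05, and the median standard error was 0.242. Scaling each array to the same median in place of the deposited scaling shifted that median to -0.15 and changed the calls to 1627 higher and 2110 lower. The calls covered 1089 of 10567 genes with a single symbol rising (10.3%) and 946 falling (8.95%), each gene taken at its brightest tested probe set, and these are the shares against which the counts per gene list below should be read; arrays of the zones did not overlap for 22.4% of genes, and 19.3% were called in either direction.

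**Figure D1:**
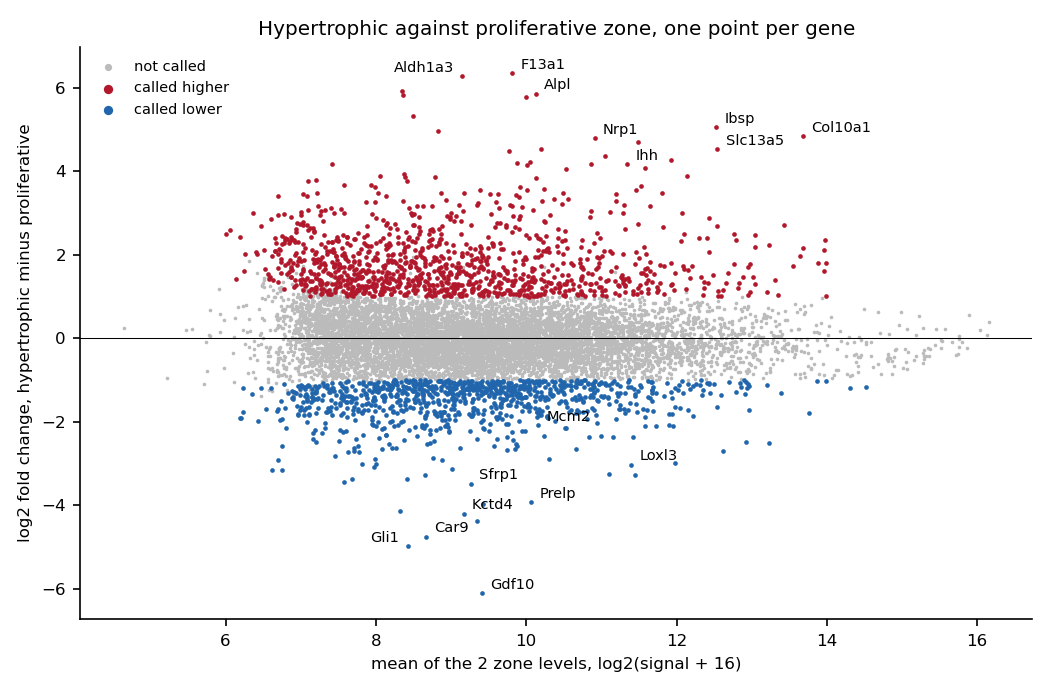
Each point is 1 of 10567 genes, with the mean of the hypertrophic and proliferative zone levels as log2(signal + 16) on the x axis and the log2 difference, hypertrophic minus proliferative, on the y axis; red points were called higher (1089 genes), blue points called lower (946 genes) and grey points were not called. F13a1 and Aldh1a3 lie at the top, above 6 log2 units, and Gdf10 at the bottom at -6.11.

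The largest rise of any gene belonged to F13a1, the catalytic A subunit of coagulation factor XIII, a transglutaminase that crosslinks matrix proteins. Its signal in animals 1 to 5 was 91.8, 128.7, 49.4, 92.8 and 46.9 in the proliferative arrays and 8667.8, 13509.7, 4059.1, 8457.1 and 6362.8 in the hypertrophic arrays. Every hypertrophic array was far above every proliferative array, and the log2 difference was 6.36 ± 0.31 (adjusted p = 8.79e-14). The dimmer probe set of F13a1 rose by less, 3.27 ± 0.43 (adjusted p = 1.32e-06). In the resting arrays F13a1 was at 520.7 to 2363.1, also above every proliferative array. Alpl, the tissue-nonspecific alkaline phosphatase that frees phosphate for mineral, was at 205.2, 134, 9.2, 185.8 and 204.4 in the proliferative zone. In the hypertrophic zone it was at 8258.9, 8637.8, 7534.1, 5633.7 and 8104.8, a log2 difference of 5.86 ± 0.33 (adjusted p = 1.19e-12). The proliferative array of animal 3 lay low within its zone, at 9.2, the difference without animal 3 was 5.27, and the zones did not overlap.

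Aldh1a3, an enzyme that makes retinoic acid from retinaldehyde, rose nearly as much as F13a1. It measured 43.4, 25.5, 28.4, 77.8 and 73.2 in the proliferative arrays and 5140.5, 5490.0, 5023.5, 3449.7 and 5235.8 in the hypertrophic arrays, a difference of 6.28 ± 0.37 (adjusted p = 2.42e-12). Gpx2, a glutathione peroxidase, went from 25.7 ± 9.04 (mean ± SD, n = 5) to 2547 ± 677, a difference of 5.93 ± 0.42. Transporters and lipid enzymes were among the other large rises. Slc13a5, a plasma membrane citrate transporter, was 1327.7, 1069.8, 1041.5, 1228.9 and 1358.3 in proliferative and 39828.8, 31895.9, 18682.9, 24749.2 and 30865 in hypertrophic arrays (4.54 ± 0.17, adjusted p = 1.66e-15), without overlap. Enpp2, which encodes autotaxin, the secreted enzyme that makes lysophosphatidic acid, rose by 4.70 ± 0.18. Ptgis, prostacyclin synthase, rose by 4.28 ± 0.24, Pnpla3, a lipid droplet lipase, by 4.50 ± 0.28, and Atp1b1, the beta subunit of the sodium-potassium pump, by 4.38 ± 0.22.

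The remaining large rises included membrane and nuclear regulators. Nrp1, a co-receptor for semaphorins and vascular endothelial growth factor, was 369.9, 321.6, 227.8, 490.1 and 342.4 in the proliferative and 12159.4, 9791.6, 7147.6, 8568.8 and 12832.6 in the hypertrophic arrays (4.79 ± 0.21, adjusted p = 1.42e-14). Epas1, the hypoxia-inducible transcription factor HIF-2 alpha, was 209, 222.5, 188.1, 151.3 and 242.8 in proliferative and 4301.4, 4954.7, 3110.9, 3954.8 and 3667.6 in hypertrophic arrays (4.20 ± 0.25, adjusted p = 2.36e-12). For both genes the zones were separated by a wide gap. Col13a1, a transmembrane collagen, rose by 4.96 ± 0.70, Sgsm1, a modulator of small G proteins, by 5.83 ± 0.30, and Cfap100, a protein of cilia and flagella, by 4.18 ± 0.57. Irx5, a homeobox transcription factor, and Slco2b1, an organic anion transporter, rose by 5.33 ± 0.41 and 5.78 ± 0.46 at their brightest probe set, but the other probe set of each was not called, with differences of 0.73 (adjusted p = 0.217) and 0.79 (adjusted p = 0.251). Ibsp, Col10a1, Mmp9 and Itgb3 complete the 20 and are described with their groups.

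The genes that define hypertrophy moved together. Of 25 tested members of that list, 20 rose and 2 fell, with a median difference of 2.19 against -0.04 over all genes; its members were chosen with earlier results of these arrays known, so its direction is a description. Col10a1, which encodes collagen X, was 4132.5, 4898.1, 1533.3, 628 and 1938.8 in the proliferative arrays. In the hypertrophic arrays it was 118263.7, 64623.8, 35544.3, 46025.7 and 63170.4, a difference of 4.85 ± 0.46 (adjusted p = 1.06e-08). The lowest hypertrophic array was still above the highest proliferative array by a wide margin. Ibsp, bone sialoprotein, an acidic protein that binds mineral, was 1272.5, 371.6, 1174.2, 453.6 and 2219.6 in proliferative and 40876.7, 36878.8, 20441.6, 33550.9 and 25411.8 in hypertrophic arrays (5.07 ± 0.39, adjusted p = 2.87e-10). Without the hypertrophic array of animal 4 the Ibsp difference was 4.86 ± 0.41 (adjusted p = 1.07e-09) and that of Col10a1 was 4.85 ± 0.50 (adjusted p = 3.41e-08).

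Among the transcription factors of the list, Foxa2, which acts in late chondrocytes, rose from 320.2 ± 115 to 2859.5 ± 719 (3.15 ± 0.18, adjusted p = 2.36e-12). Mef2c and Mef2d, MADS-box factors that drive hypertrophy, rose by 1.39 ± 0.16 and 1.28 ± 0.16. Runx3, a runt-domain factor of prehypertrophic chondrocytes, differed by -1.69 ± 0.17 (adjusted p = 2.02e-08), a fall, with 4799.1, 2817.8, 5486, 4415 and 3951.3 in proliferative and 886.6, 1078.9, 1949.1, 1443.3 and 1299.1 in hypertrophic arrays; its dimmer probe set was not called, at -0.52 (adjusted p = 0.103). Zfp521, a zinc finger protein that restrains Runx2, was the other fall, with a difference of -2.68 ± 0.25 (adjusted p = 5.53e-09). The members not called were Hdac4, a deacetylase that holds back hypertrophy, Dlx5 and the growth factor Vegfa, at -0.90 ± 0.33 (adjusted p = 0.0319), -0.68 ± 0.33 (adjusted p = 0.112) and 0.47 ± 0.31 (adjusted p = 0.258). Other signals and a receptor rose: Bmp6 by 3.57 ± 0.25, Bmp2 by 2.73 ± 0.19, and Pth1r, the receptor for parathyroid hormone-related protein, by 2.36 ± 0.16. A second, dimmer probe set of Pth1r was not called, at 0.26 (adjusted p = 0.467). Runx2, Sp7 and Sox9 were not analysed here.

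Promoters of 2 strongly raised hypertrophy genes, from RefSeq, are printed to show a feature that the rule did not use, the TATA box (TATAAA, searched on both strands, so also as TTTATA). The sequences are the 250 bases before the annotated start in the rat assembly GRCr8, read 5′ to 3′ in the direction of transcription, with the motif in capitals. Col10a1 lies at chr20:39737286-39737535, plus strand, and Ibsp at chr14:5757243-5757492, minus strand.
Col10a1: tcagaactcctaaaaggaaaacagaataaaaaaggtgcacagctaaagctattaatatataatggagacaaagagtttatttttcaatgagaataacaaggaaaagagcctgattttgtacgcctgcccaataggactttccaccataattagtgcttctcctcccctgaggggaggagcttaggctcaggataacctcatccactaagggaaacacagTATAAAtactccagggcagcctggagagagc
Ibsp: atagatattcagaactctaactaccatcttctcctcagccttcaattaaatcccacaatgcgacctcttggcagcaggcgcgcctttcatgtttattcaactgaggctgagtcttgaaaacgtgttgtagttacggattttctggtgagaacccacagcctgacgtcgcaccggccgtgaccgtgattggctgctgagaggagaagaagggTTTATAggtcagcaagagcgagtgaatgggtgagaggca
The match began 31 bases before the start in Col10a1 and 39 bases before it in Ibsp. Of the 17 tested hypertrophy genes with an entry, 6 held the motif within 250 bases (35.3%), and of 5 hypertrophic chondrocyte markers, which also belong to that list, 4 held it (80%). High shares were not particular to hypertrophy: 50% of 4 osteoblast, 37.5% of 8 fibroblast, 36.4% of 11 muscle and 30% of 10 mineralization promoters held it. In the DNA replication, Wnt and FGF lists the share was 0%. Over all 8846 tested genes with an entry the share was 6.41%, among genes called higher 8.9%, and among genes called lower 5.56%. The letters TGTGGT or ACCACA, the core bound by Runx factors, stood in 11.8% of the hypertrophy promoters and 10.4% of those of all tested genes. A match describes letters only, and no binding was measured.

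**Figure D2:**
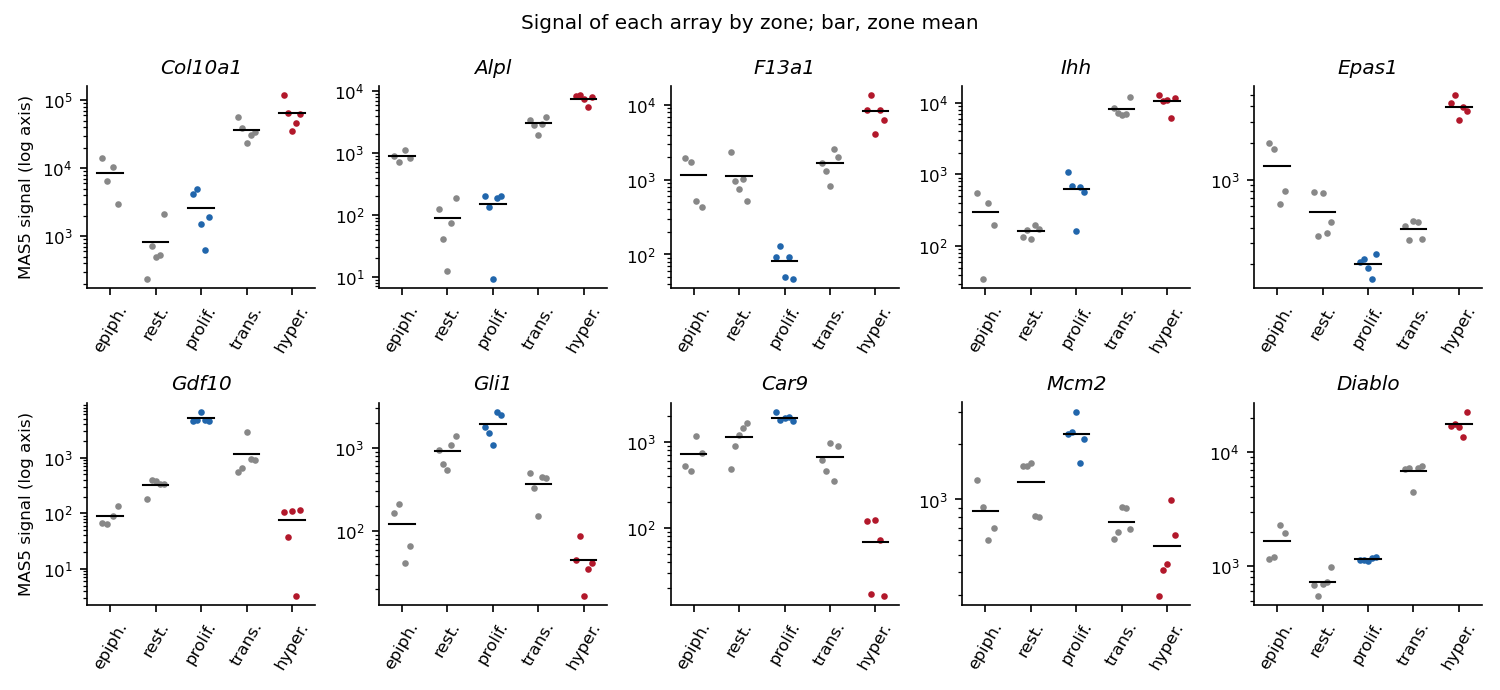
MAS5 signal (log axis, arbitrary units) of 10 genes in every array of the 5 zones, with a bar at each zone's mean; hypertrophic arrays are red, proliferative arrays blue and the other zones grey. Col10a1, Alpl, F13a1 and Ihh were also raised in the transition arrays, whereas the transition arrays of Epas1 lay well below the hypertrophic arrays. Gdf10, Gli1 and Car9 peaked in the proliferative zone.

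Genes of mineralization rose in 9 of 18 tested cases and fell in 2, with a median difference of 1.0. Besides Alpl and Ibsp, Phospho1, a phosphatase active in matrix vesicles, rose by 2.91 ± 0.23, Car2, carbonic anhydrase 2, by 2.92 ± 0.28, and Slc20a1, a phosphate importer, 2.46-fold. Mgp, matrix Gla protein, which inhibits mineralization, was 31445.1, 20450.7, 23910.9, 25882.7 and 24582.6 in proliferative and 7070.6, 4974.4, 6037.2, 11743.9 and 8138.8 in hypertrophic arrays, a fall with no overlap (-1.78 ± 0.18, adjusted p = 1.72e-08). Enpp1 and Ankh, which supply the mineral inhibitor pyrophosphate, were not called, at -0.04 ± 0.15 (adjusted p = 0.865) and 0.31 ± 0.31 (adjusted p = 0.452). Genes known from mineralizing bone cells were highest in 1 array. Spp1, osteopontin, was 1625.2, 1092, 1180.8, 21853.3 and 1415.9 in the hypertrophic arrays and 353.3, 399.8, 319.8, 357.4 and 455.5 in the proliferative arrays. Dmp1, dentin matrix protein 1, was 703, 1076.3, 367, 11406.1 and 714 against 94.2, 105.3, 264.2, 226.5 and 249.3. Animal 4 had by far the highest value of both genes. With all arrays the differences were 2.57 ± 0.53 for Spp1, 2.67 ± 0.55 for Dmp1 and 2.23 ± 0.60 for Phex, a peptidase of osteocytes; without that array they were 1.70 ± 0.31 (adjusted p = 0.000115), 1.84 ± 0.39 (adjusted p = 0.000497) and 1.33 ± 0.44 (adjusted p = 0.0207).

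In the cartilage matrix the main collagens were not called, while several smaller matrix proteins fell. Of 25 tested members 1 rose and 7 fell, with a median of -0.25, or -0.11 without the hypertrophic array of animal 4. Col2a1, the main collagen of cartilage, was 120175.5, 50011.9, 39546.7, 60931.1 and 75975.4 in proliferative and 138434.3, 69446.4, 42167.3, 50197.5 and 73710.9 in hypertrophic arrays, which overlapped (0.09 ± 0.21, adjusted p = 0.778). Acan, the proteoglycan aggrecan, was not called either, at 0.25 ± 0.17 (adjusted p = 0.281), nor were Col9a1 at -0.04 ± 0.19, Col11a2 at 0.09 ± 0.19, Hapln1 at 0.23 ± 0.17 or Comp at 0.22 ± 0.19. Prelp, a leucine-rich repeat protein that links matrix to basement membrane, was 4191.9, 2162.7, 4901.2, 4220.6 and 3592.8 in proliferative and 70.6, 184.1, 617.2, 177.6 and 377.5 in hypertrophic arrays (-3.93 ± 0.27, adjusted p = 4.32e-11). Matn2, a matrilin, differed by -3.28 ± 0.21, Scrg1 by -2.98 ± 0.22, Fmod, fibromodulin, by -2.49 ± 0.20, and Ucma, a Gla-rich protein of young cartilage, by -3.14 ± 0.23. Matn1, another matrilin, differed by -1.32 ± 0.22 and fell short of 2-fold without animal 4 (-0.99, adjusted p = 7.22e-05). Dcn, decorin, was the single rise, at 1.73 ± 0.31.

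Collagens of bone and connective tissue rose in 8 of 15 tested cases and fell in 3. Col6a1 and Col6a2, chains of collagen VI, which surrounds each chondrocyte, rose by 2.70 ± 0.18 and 2.38 ± 0.17. Col1a1, the main collagen of bone, was 1624.2, 884, 1114.3, 1259 and 1537.8 in proliferative and 6944.8, 3515.6, 8405.8, 39363.7 and 13606.3 in hypertrophic arrays (3.01 ± 0.40, adjusted p = 1.93e-06), again highest in animal 4; without that array the difference was 2.49 ± 0.33 (adjusted p = 1.57e-06). Col5a2 rose by 3.54 ± 0.51, and by 2.87 ± 0.41 (adjusted p = 5.54e-06) without that array. Col18a1, the source of endostatin, rose by 2.39 ± 0.49, whereas Col15a1 and Col16a1 differed by -1.13 ± 0.15 and -1.23 ± 0.14; the dimmer probe set of Col15a1 was just under 2-fold, at -0.98. Col3a1 was called at 1.81 ± 0.58 (adjusted p = 0.0155) but not without the array of animal 4, at 1.04 ± 0.46 (adjusted p = 0.0772), nor without animal 1, at 1.75 (adjusted p = 0.0571). Summed osteoblast markers, which share the collagen I chains, were 26737 to 127361 in the hypertrophic and 4674 to 12040 in the proliferative arrays; the part of bone cells in the rise of these collagens was not tested.

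Proteases and their inhibitors rose in 12 of 29 tested cases and fell in 1, with a median of 0.78; without the hypertrophic array of animal 4, 11 rose and the median was 0.47. Adam15, a membrane-bound metalloprotease with a disintegrin domain, was 273.8, 237.2, 104.7, 344.4 and 350.8 in proliferative and 4588.1, 3144.9, 2593.5, 2014 and 4428.7 in hypertrophic arrays (3.63 ± 0.21, adjusted p = 2.36e-12). Adam17, the sheddase of tumour necrosis factor alpha and of several growth factors, rose by 1.83 ± 0.14, and Adamts1, an aggrecanase family member, by 2.86 ± 0.29. Inhibitors rose as well. Timp3, an inhibitor of metalloproteases held in the matrix, differed by 3.48 ± 0.24, and Serpine2, a serine protease inhibitor, by 3.49 ± 0.33. The fall was Timp2, another inhibitor, at -1.05 ± 0.36 (adjusted p = 0.0238), which was not called without animal 1, 2, 3 or 5 (adjusted p = 0.0836 to 0.168) and was at -1.67 ± 0.19 (adjusted p = 1.35e-07) without the hypertrophic array of animal 4. Metalloproteases of cartilage removal had wider spreads. Mmp13, which cuts collagen II, was 860.7, 241.4, 770.2, 615.4 and 1178.4 in proliferative and 13034.4, 8994.7, 7704.5, 24692.4 and 8554.1 in hypertrophic arrays (4.09 ± 0.64, adjusted p = 1.77e-05), with animal 4 highest. Mmp9, the gelatinase made mainly by osteoclasts, was 181.6, 52.5, 262.3, 174.9 and 484.5 and 4985.1, 2668.3, 5079.7, 11696.8 and 3122.5 in the same order (4.55 ± 0.73, adjusted p = 2.37e-05). Without the hypertrophic array of animal 4 the differences were 3.58 ± 0.63 (adjusted p = 7.84e-05) and 3.95 ± 0.72 (adjusted p = 0.000105). Mmp14 and Adamts5 were not called, at 0.58 ± 0.25 (adjusted p = 0.0772) and 0.52 ± 0.36 (adjusted p = 0.276).

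Genes of DNA synthesis fell as a group. None of 29 tested members rose and 18 fell, a share far above the 8.95% of all genes called lower, with a median of -1.32 and all 29 members below 0. Without the hypertrophic array of animal 4, 22 fell and the median was -1.36. Mcm2, a subunit of the replicative helicase, was 2266.3, 2346.7, 3013.2, 1573.1 and 2127.2 in proliferative and 299.1, 412.5, 442.7, 996.5 and 638.9 in hypertrophic arrays (-2.08 ± 0.27, adjusted p = 1.28e-06). Its zones did not overlap, and the hypertrophic array of animal 4 was the highest of its zone. Pold1, the catalytic subunit of DNA polymerase delta, differed by -1.72 ± 0.17, Lig1, a DNA ligase, by -1.39 ± 0.15 (its dimmer probe set by -0.99), Cdc45, which activates the helicase, by -1.55 ± 0.21, and Prim1, a primase subunit, by -1.62 ± 0.23. Pcna, the sliding clamp, was lower but under 2-fold, at -0.95 ± 0.29 (adjusted p = 0.0134). It was called without the hypertrophic array of animal 4, at -1.24 ± 0.27 (adjusted p = 0.000862).

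Mitosis genes fell in 30 of 48 tested cases, with a median of -1.16. None was called higher by limma; 2 were above 0, both at an unadjusted p below 0.05 (Cdc25b and Cks2, named after their values were seen), and 1 member was called higher without animal 1, 2 or 3. Ska1, which couples kinetochores to microtubules, differed by -2.51 ± 0.29, Smc2, a condensin subunit, by -1.78 ± 0.24, Kif20b and Kif23, mitotic kinesins, by -2.08 ± 0.28 and -1.74 ± 0.25, and Racgap1, a regulator of cytokinesis, by -2.15 ± 0.32. Top2a, topoisomerase II alpha, was 2844.5, 1850.5, 2452.6, 1394.3 and 1576.5 in proliferative and 234.4, 438.3, 541.6, 941.5 and 1022.1 in hypertrophic arrays (-1.77 ± 0.32, adjusted p = 0.000107). Cdk1, the mitotic kinase, was called at -1.27 ± 0.31 (adjusted p = 0.00234) but not without animal 1 (-0.99, adjusted p = 0.0263). Mki67, the antigen used to stain cycling cells, was not called (-0.69 ± 0.24, adjusted p = 0.0291). Its values were 3696.1, 3079.5, 3052.9, 2878.4 and 4033.7 in proliferative and 1922.1, 1418.4, 1083.8, 2714.4 and 4543.7 in hypertrophic arrays, and the hypertrophic array of animal 5 was the highest of all 10.

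Of the proliferative, transition and hypertrophic zones, the transition zone had the lowest mitosis genes by the list's median. From proliferative to transition 44 of 48 mitosis genes were called lower (median -2.05), and from transition to hypertrophic 16 of 48 were called higher (median 0.82) and none lower; over all genes 5.07% were called lower in the first step, and 7.45% higher and 2.42% lower in the second. The comparisons share the transition arrays, and the labels of those arrays differ as stated, so zone and batch cannot be told apart. For Mki67 the zone means were 3348 ± 493 in proliferative, 511 ± 166 in transition and 2336 ± 1378 in hypertrophic arrays. Replication genes showed less of this, with 24 of 29 lower in transition than in proliferative arrays and 1 of 29 higher in hypertrophic than in transition arrays. Beside these values, the summed erythroid markers were 5109 to 10355 in the transition and 15254 to 43055 in the hypertrophic arrays, and the part of marrow cells was not tested.

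**Figure D3:**
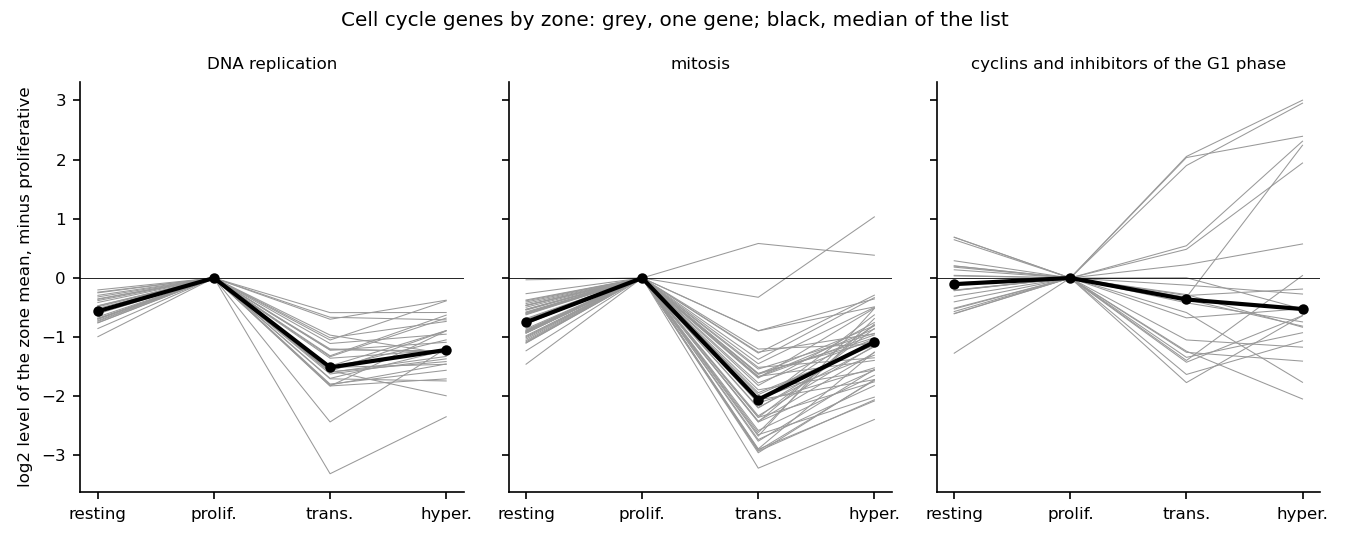
Each grey line is 1 gene, drawn as the log2 level of its zone mean minus its proliferative zone mean on the y axis, for the resting, proliferative, transition and hypertrophic zones on the x axis; the black line is the median of the list. Replication genes (29) stay low from transition to hypertrophic zone (medians -1.51 and -1.22), mitosis genes (48) move from -2.06 to -1.08, and genes of the G1 phase (23) spread both ways.

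Promoters of 4 cell cycle genes are shown, from the replication and mitosis lists. They carry the E2F letters, frequent in the replication list alone, or the letters CCAAT, frequent in both lists. For E2F the letters TTTGGCGC, TTTCCCGC, TTTCGCGC and TTTGCCGC were searched on both strands. For NF-Y the letters CCAAT were searched, also on both strands. The capitals mark the matches, in 250 bases before the start as above. Mcm2 lies at chr4:122918095-122918344, minus strand, Mcm5, another helicase subunit, at chr19:13488563-13488812, plus strand, Top2a at chr10:84473094-84473343, minus strand, and Hmmr, a spindle-associated hyaluronan receptor, at chr10:25665216-25665465, minus strand.
Mcm2: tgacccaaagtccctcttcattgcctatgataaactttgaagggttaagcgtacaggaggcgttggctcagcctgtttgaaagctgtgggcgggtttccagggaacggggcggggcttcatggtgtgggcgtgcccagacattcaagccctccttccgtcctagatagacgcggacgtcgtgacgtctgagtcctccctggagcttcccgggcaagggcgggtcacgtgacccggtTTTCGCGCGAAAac
Mcm5: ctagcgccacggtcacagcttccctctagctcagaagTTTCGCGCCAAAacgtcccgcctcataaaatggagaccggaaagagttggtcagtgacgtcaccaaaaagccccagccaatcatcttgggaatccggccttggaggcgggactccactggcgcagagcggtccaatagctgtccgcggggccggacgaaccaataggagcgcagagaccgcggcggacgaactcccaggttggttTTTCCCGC
Top2a: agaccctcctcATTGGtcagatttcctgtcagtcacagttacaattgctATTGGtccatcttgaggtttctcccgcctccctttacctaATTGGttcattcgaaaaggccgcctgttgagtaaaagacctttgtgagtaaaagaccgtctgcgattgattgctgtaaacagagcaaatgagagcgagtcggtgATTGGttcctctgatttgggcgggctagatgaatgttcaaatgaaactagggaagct
Hmmr: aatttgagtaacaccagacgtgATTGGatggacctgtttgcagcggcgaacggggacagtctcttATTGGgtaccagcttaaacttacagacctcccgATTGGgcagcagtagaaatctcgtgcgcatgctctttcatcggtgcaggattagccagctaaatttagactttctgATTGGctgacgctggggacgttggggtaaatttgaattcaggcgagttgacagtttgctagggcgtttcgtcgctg
Mcm2 held 2 overlapping E2F matches 14 and 10 bases before the start, and Mcm5 held 3, of which 2 overlap. Top2a and Hmmr each held 4 CCAAT matches, all on the opposite strand, where they read in reverse complement. An E2F match stood in 6 of 28 replication promoters (21.4%), in 4.65% of mitosis promoters and in 3.3% of those of all tested genes. CCAAT was found in 33 of 43 mitosis promoters (76.7%) and in 57.1% of replication promoters, against 35.8% of all tested genes. Among all genes called lower the shares were 6.07% for E2F and 37.7% for CCAAT. In the endoplasmic reticulum list, which moved little, CCAAT stood in 66.7% of promoters. The differences of Mcm5 and Hmmr were -1.48 ± 0.29 (adjusted p = 0.000259) and -1.18 ± 0.30 (adjusted p = 0.00303); Hmmr fell short of 2-fold without animal 1 (-0.85, adjusted p = 0.0315), and its dimmer probe set was not called (-0.84, adjusted p = 0.0675).

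Regulators of the G1 phase moved both ways. Of 23 tested, 6 rose and 5 fell; without animal 5, 8 fell. Cdkn1a, the cyclin-dependent kinase inhibitor p21, was 845.8, 724.6, 483.4, 924.7 and 870.4 in proliferative and 5470.5, 6767.2, 6480.4, 5454.4 and 7287.1 in hypertrophic arrays (3.03 ± 0.20, adjusted p = 1.29e-11). Gadd45b and Gadd45g, stress-induced growth arrest proteins, rose by 2.95 ± 0.19 and 1.94 ± 0.17, and Rb1, the retinoblastoma protein, rose by 2.39 ± 0.27. Ccne2 and Ccnd2, cyclins E2 and D2, differed by -1.98 ± 0.31 and -1.18 ± 0.19, but the dimmer probe set of Ccne2 was not called and had the opposite sign, at 0.28 (adjusted p = 0.449). Myc, a growth-promoting transcription factor, differed by -1.76 ± 0.33 (adjusted p = 0.000128). E2f1 fell and E2f2 rose, at -1.48 ± 0.32 and 1.94 ± 0.32. Ccnd1, cyclin D1, was 933.3, 1623.2, 803.6, 1271.7 and 1176.4 in proliferative and 956.5, 1319, 667.2, 1961.7 and 1072.5 in hypertrophic arrays and was not called (-0.01 ± 0.27, adjusted p = 0.986). Cdkn1c, the inhibitor p57, was higher but under 2-fold, at 0.55 ± 0.19 (adjusted p = 0.027).

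In the hedgehog pathway, named in the title of the series, the ligand rose and the target Gli1 fell. Of 12 tested members of the hedgehog and PTHrP list, 3 rose and 5 fell, or 3 fell with a pseudocount of 64. Ihh was 1086.1, 695.6, 163.2, 664.7 and 565.8 in proliferative and 12715.6, 10515.4, 10934.1, 6203.6 and 11681.8 in hypertrophic arrays (4.17 ± 0.40, adjusted p = 1.17e-08), and Disp1, which releases the ligand from the secreting cell, rose 2.84-fold. Gli1, a transcription factor that is itself a target of the pathway, was 1768.3, 1494, 1088.2, 2702.5 and 2452.4 in proliferative and 45.7, 87.8, 16.9, 35.2 and 41.9 in hypertrophic arrays (-4.99 ± 0.31, adjusted p = 7.3e-12). Hypertrophic values of Gli1 were all below 100, and no array of the zones overlapped. Smo, the transducer, differed by -1.31 ± 0.17, Kif7, a ciliary kinesin of the pathway, by -1.32 ± 0.19, and Gli2 by -1.08 ± 0.27. Hhip, a decoy receptor for the ligand, was called at -1.14 ± 0.39 (adjusted p = 0.022), but not without animal 3 (-0.85, adjusted p = 0.117), animal 4 (-0.97, adjusted p = 0.0794) or animal 5 (-1.06, adjusted p = 0.0692). Dropping just animal 4's hypertrophic array also ended the call (-0.92, adjusted p = 0.0745). Sufu and Boc were not called, at 0.03 ± 0.47 (adjusted p = 0.968) and -0.67 ± 0.29 (adjusted p = 0.0751). The Ihh level was also raised in the transition arrays, at 8284 ± 2254, where Gli1 was at 371 ± 137. Ptch1, Gli3 and Pthlh were not analysed here.

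Bone morphogenetic protein genes included the largest fall of all. Of 33 tested, 9 rose and 6 fell. Gdf10, a growth differentiation factor also called BMP-3b, was 4593.5, 4779.5, 6738.1, 4822.5 and 4494 in proliferative and 104.8, 37.2, 111.7, 3.3 and 116.8 in hypertrophic arrays (-6.11 ± 0.36, adjusted p = 2.36e-12). Ligands moved both ways: Bmp2 was 835.6, 1166.3, 1125.1, 1263.7 and 1038.1 in proliferative and 8085, 9091.6, 9831.1, 4904.7 and 5649.4 in hypertrophic arrays, without overlap. Bmp6 was 283.5, 341.4, 222, 533.6 and 294.6 in proliferative and 4628, 4796.8, 4302.7, 2361.4 and 4492.4 in hypertrophic arrays, also without overlap. Bmp1, a protease that matures procollagens and is no ligand despite its name, rose by 1.93 ± 0.14, whereas its dimmer probe set was not called, at 0.33 (adjusted p = 0.716). Of the proteins that modulate the ligands outside the cell, Bmper differed by -3.28 ± 0.33 and Grem1, gremlin, rose by 2.41 ± 0.39, whereas Nog, noggin, was not called (0.15 ± 0.19, adjusted p = 0.59). Inside the cell Smad9 and Id2 fell, at -1.80 ± 0.25 and -1.25 ± 0.19, and Bambi, a pseudoreceptor that blocks signalling, rose by 1.51 ± 0.19. Bmpr2 and Id1 were not called, at 0.03 ± 0.19 (adjusted p = 0.928) and 0.33 ± 0.20 (adjusted p = 0.213). In the transforming growth factor beta list 4 of 16 rose and 2 fell: Tgfbi, an extracellular protein induced by the factor, differed by -2.71 ± 0.19, Tgif1, a nuclear corepressor, by -2.13 ± 0.31, Inhba, the activin A subunit, by 2.21 ± 0.42, and Acvrl1, a type I receptor known from endothelium, by 2.42 ± 0.47.

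Among Wnt genes 5 of 28 rose and 6 fell; without animal 3, 3 rose. Sfrp1, a secreted inhibitor of Wnt ligands, was 2487, 1736.6, 995.5, 2528.5 and 2710.0 in proliferative and 160.2, 149.3, 144.3, 145.6 and 219.2 in hypertrophic arrays (-3.48 ± 0.18, adjusted p = 2.84e-13). Sfrp2 and Sfrp5, relatives of Sfrp1, differed by -2.23 ± 0.33 and -1.74 ± 0.33, and the receptors Fzd2 and Fzd1 by -1.77 ± 0.22 and -1.26 ± 0.22. Lrp4, a co-receptor that binds sclerostin, rose by 2.90 ± 0.30, Tcf7l2, a transcription factor of the pathway, by 1.71 ± 0.14, and Wnt4 by 1.76 ± 0.26. Ctnnb1, beta-catenin, and Axin2, a target of the pathway, were not called, at 0.10 ± 0.15 (adjusted p = 0.621) and 0.11 ± 0.32 (adjusted p = 0.812). The fibroblast growth factor list had 2 rises and 1 fall among 11 (18.2% and 9.09%, against 10.3% and 8.95% of all genes). Without animal 5, 4 rose, without animal 3, 1 rose, and without animal 1, 2 or 3, 2 fell. Fgfr1, the receptor of hypertrophic chondrocytes, was 451.3, 805.9, 491.2, 1124.8 and 1036.3 in proliferative and 3747.6, 4159.7, 1712.8, 4716.1 and 3567.8 in hypertrophic arrays (2.19 ± 0.21, adjusted p = 1.15e-08), whereas Fgfr3, the receptor that restrains growth of the plate, was not called, at 0.12 ± 0.17 (adjusted p = 0.619). Fgfr4 fell, at -2.10 ± 0.31.

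Insulin-like growth factor genes rose in 4 of 21 cases (19%) and fell in 2 (9.52%), or in 1 without animal 4. Over all genes 10.3% rose and 8.95% fell. Igf1, the growth factor itself, was 19, 21.9, 13, 23 and 30.8 in proliferative and 603.6, 343.3, 285, 1167.7 and 425.1 in hypertrophic arrays (3.79 ± 0.55, adjusted p = 6.23e-06), highest in animal 4, and its difference without that array was 3.35 ± 0.56 (adjusted p = 3.79e-05). Igfbp5, a binding protein, rose by 2.23 ± 0.41; of its other 3 probe sets 2 were called higher and 1 was not, at 0.76 (adjusted p = 0.247). Igf2, the ligand of early life, and Igf1r, the receptor, were lower without being called, at -0.51 ± 0.20 (adjusted p = 0.0446) for Igf2 and a fold of 1.996 for Igf1r (adjusted p = 0.000115). Grb10, an adaptor that restrains the receptor, was called at -1.15 ± 0.15 and fell short of 2-fold without animal 4 (-0.98, adjusted p = 7.57e-05). Ghr, the growth hormone receptor, was not called, at 0.60 ± 0.21 (adjusted p = 0.027).

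Genes of vessel attraction and guidance rose in 8 of 18 cases and fell in 1, with a median of 1.11. Apart from Nrp1, Ackr3, a scavenger receptor for the chemokine Cxcl12, was 510.2, 392.5, 284.6, 247 and 296.7 in proliferative and 7119.5, 7154.7, 3870.1, 5508.6 and 6265.9 in hypertrophic arrays (4.06 ± 0.20, adjusted p = 1.03e-13). Its ligand Cxcl12 rose by 2.23 ± 0.46, and the signalling receptor Cxcr4 fell, at -1.72 ± 0.28. Slit3 and Slit2, secreted guidance proteins, rose by 2.89 ± 0.36 and 3.40 ± 0.71, and Nrp2 by 1.70 ± 0.25. Without the hypertrophic array of animal 4 the Slit2 difference was 2.68 ± 0.70 (adjusted p = 0.00383). Vegfa, the vessel growth factor made by hypertrophic chondrocytes, was 1870.7, 2238.4, 3029.1, 1749.7 and 3556.3 in proliferative and 3036.4, 2961.9, 2268.7, 3697.6 and 5353.7 in hypertrophic arrays, which overlapped (0.47 ± 0.31, adjusted p = 0.258); its dimmer probe set was called higher, at 1.27 (adjusted p = 0.0107). Kdr, the receptor found on endothelium, was called at 1.88 ± 0.65 (adjusted p = 0.0237), but not without the array of animal 4, at 1.21 ± 0.60 (adjusted p = 0.118), nor without animal 3, at 1.99 (adjusted p = 0.0513). Of 7 endothelial markers 3 rose, none of them without that array or without animal 3, and their summed signal was 1425 to 4006 in hypertrophic and 932 to 1543 in proliferative arrays.

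Genes of hypoxia and glycolysis were mostly lower: 2 of 30 rose, 8 fell, 25 had a lower mean, and the median was -0.73. Without animal 5, 1 rose. Car9, a carbonic anhydrase widely used as a sign of hypoxia, was 2228.7, 1770.3, 1866.3, 1935.8 and 1733.1 in proliferative and 119.7, 17.2, 123.3, 72.2 and 16.5 in hypertrophic arrays (-4.75 ± 0.36, adjusted p = 1.57e-10). Glycolytic enzymes were lower by smaller amounts. Pfkm, phosphofructokinase, was at -0.89 ± 0.12 (adjusted p = 2.7e-06), Pgam1, phosphoglycerate mutase, at -0.85 ± 0.14 (adjusted p = 4.18e-05), Tpi1 at -0.75 ± 0.15 (adjusted p = 0.000341) and Ldha, lactate dehydrogenase, at -0.67 ± 0.17 (adjusted p = 0.0024), all lower but under 2-fold. Eno1, enolase, was called at -1.02 ± 0.14 (adjusted p = 4.56e-06), and fell short of 2-fold without any 1 of animals 1, 4 and 5 (-0.93 to -0.97). Hk1, a hexokinase, and Pfkp, another phosphofructokinase, were called lower, at -1.47 ± 0.34 (adjusted p = 0.00112) and -1.18. Hk1 fell short of 2-fold without animal 1 (-0.96), and its dimmer probe set was not called (-0.90, adjusted p = 0.066). Pgk1 was not called at its brightest probe set (-0.86), but its dimmer one was, at -1.13 (adjusted p = 3.08e-05). Egln1, the oxygen sensor of the HIF proteins, and Bnip3, a target of HIF, fell, at -1.40 ± 0.21 and -1.36 ± 0.21. Hif1a, HIF-1 alpha, was at -0.45 ± 0.15 (adjusted p = 0.0174), while its relative Epas1 rose. Respiratory chain genes had 1 rise and 1 fall among 38 and a median of 0.05, or -0.09 without the hypertrophic array of animal 4. The fall, Ndufb10, was not called without animal 1, 3 or 5, nor with no replicate block (adjusted p = 0.0634); subunits such as Sdha and Uqcrc1 were at 0.12 ± 0.17 and 0.12 ± 0.12.

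Transport of ions and water rose in 10 of 24 cases and 14 were not called. None was called lower by limma, although 4 were lower at an unadjusted p below 0.05 and 1 was called without animal 3 or with arrays scaled to one median. Piezo1, a channel opened by mechanical force, was 2523.9, 2235.7, 1402.3, 2098.8 and 1885.5 in proliferative and 16253.1, 15473.9, 11766.4, 12657.5 and 19104.9 in hypertrophic arrays (2.89 ± 0.14, adjusted p = 1.04e-13). Slc4a3, an anion exchanger, rose by 3.00 ± 0.28, Clic4, a chloride channel protein, by 1.46 ± 0.12 at its brightest of 4 probe sets, of which 2 were not called (0.54 and 0.70), Slc12a2, the sodium-potassium-chloride cotransporter NKCC1, by 1.26 ± 0.13, and Panx3, a channel of late chondrocytes, by 2.12 ± 0.28. Trpv4, a calcium channel of chondrocytes, and Aqp1, a water channel, were not called, at 0.10 ± 0.18 (adjusted p = 0.691) and 0.16 ± 0.50 (adjusted p = 0.826); the dimmer probe set of Aqp1 was called higher, at 2.01 (adjusted p = 0.00276).

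Genes of the endoplasmic reticulum, of cell death and of autophagy rose in 6.67%, 13.6% and 12.9% of cases, against 10.3% of all genes. In the same order they fell in 8.89%, 4.55% and 0%, against 8.95% of all genes. In the endoplasmic reticulum list 3 of 45 rose and 4 fell. The chaperone Hspa5 was not called, at 0.08 ± 0.14 (adjusted p = 0.695). Of the paired oxidases, Ero1b was 153.2, 52.3, 91.3, 31.9 and 46.6 in proliferative and 1484.9, 1182.8, 743.5, 1160.6 and 1516.1 in hypertrophic arrays (3.87 ± 0.37, adjusted p = 9.7e-09), a rise. Ero1a fell at its brightest probe set, at -1.27 ± 0.24 (adjusted p = 0.000178), while its dimmer one was not called, at 0.06 (adjusted p = 0.898). Plod1, a lysyl hydroxylase of collagen, fell, at -1.19 ± 0.16. Among genes of cell death and survival 3 of 22 rose and 1 fell; without animal 3, 6 rose, and the fall was not called without animal 1 or 2. Diablo, a mitochondrial protein that relieves the inhibition of caspases, was 1129.1, 1134.5, 1105.6, 1186.2 and 1196 in proliferative and 16913.1, 17660.6, 16561.3, 13586.9 and 22509.1 in hypertrophic arrays (3.89 ± 0.16, adjusted p = 1.06e-14), the largest change of the list. Bcl2l1, which protects against apoptosis, and Bbc3, which promotes it, both rose, 2.83-fold and 4.02-fold (Bbc3 by 1.35 on the log2 scale without animal 1), and Casp9 was not called (-0.21 ± 0.20, adjusted p = 0.458). Autophagy and lysosome genes rose in 4 of 31 cases: Ctsl, cathepsin L, by 1.33 ± 0.15, Ulk1, the kinase that starts autophagy, by 1.39 ± 0.16, Gabarapl1 by 1.54 ± 0.19 and Map1lc3a by 1.28 ± 0.20.

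Nuclear receptor and retinoid genes had 2 rises and 2 falls among 24, and without animal 5, 4 rose. That is 8.33% each way, near the 10.3% of all genes called higher and 8.95% called lower. Thrb, a thyroid hormone receptor, was 1883, 2381.8, 2392.1, 2996.1 and 2584.4 in proliferative and 7470.1, 10582.8, 5202.1, 7364.7 and 8533 in hypertrophic arrays (1.65 ± 0.17, adjusted p = 4.35e-08); its 2 dimmer probe sets were not called, at 0.74 and 0.88 (adjusted p = 0.0264 and 0.062). Besides the rise of Aldh1a3, Cyp26b1, which breaks down retinoic acid, fell, at -1.55 ± 0.21 (its dimmer probe set was not called, at -0.79, adjusted p = 0.102), and so did Rbp4, the plasma retinol carrier, at -1.60 ± 0.25. Thra and Rarg were not called, at 0.30 ± 0.25 (adjusted p = 0.363) and -0.09 ± 0.18 (adjusted p = 0.726). Npr3, the clearance receptor of natriuretic peptides, was the 1 rise among 5 genes of that system (2.06 ± 0.49, adjusted p = 0.00175). In the Notch list 1 of 16 rose and 1 fell, 6.25% each way and below the shares over all genes. The rise was the target Hey1 at 2.42 ± 0.51, and without animal 1, 3 rose. The ligand Jag1 was called lower at -1.19 ± 0.47 (adjusted p = 0.0479), but not without animal 1, 2, 3 or 5 (adjusted p = 0.0736 to 0.199), nor with no replicate block (adjusted p = 0.0728).

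**Figure D4:**
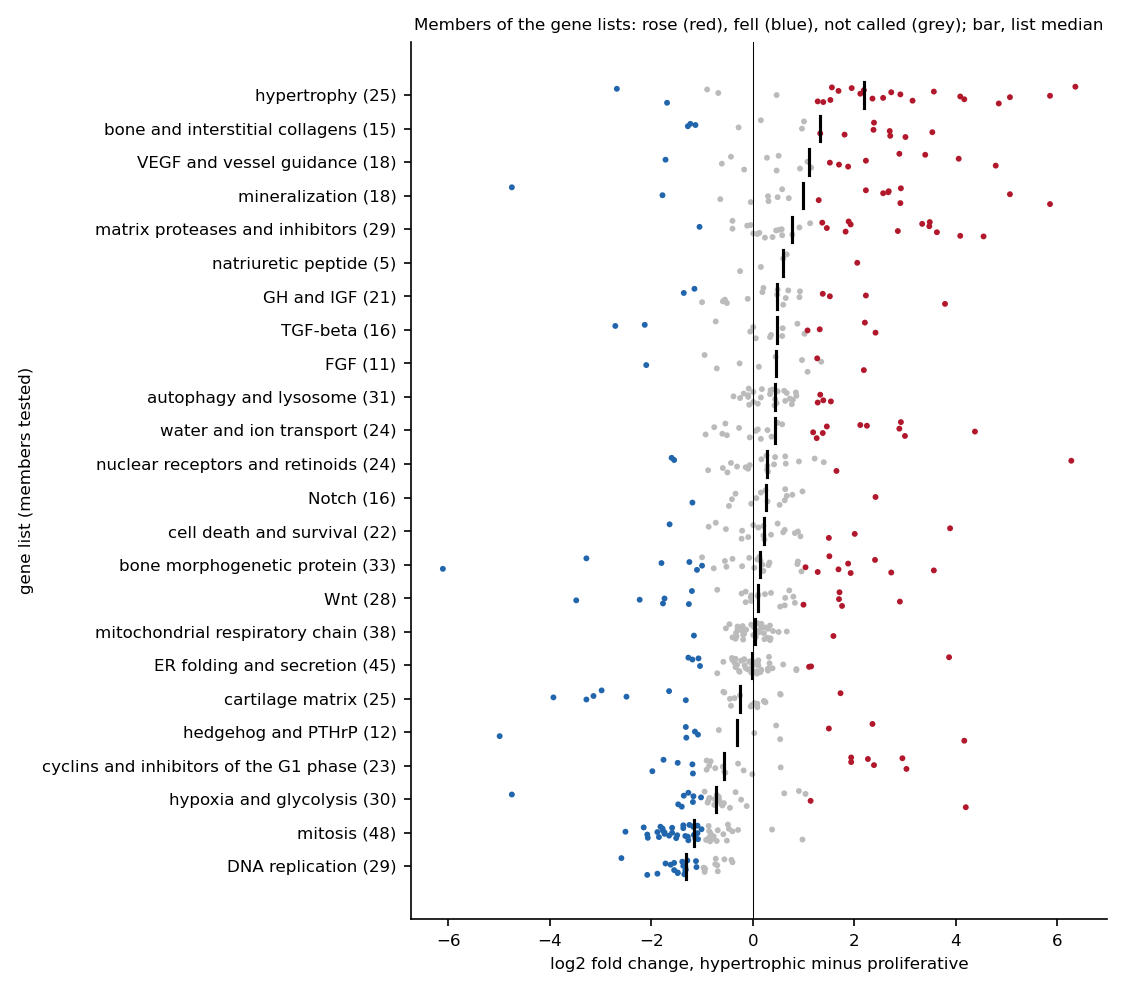
Log2 difference, hypertrophic minus proliferative, on the x axis for each tested member of 24 gene lists on the y axis; red points rose, blue points fell, grey points were not called, and the black bar is the list's median. The hypertrophy list has the highest median (2.19) and DNA replication the lowest (-1.32), while the 38 respiratory chain genes gather near 0.

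Most of the 20 largest falls were not members of these pathway lists. P4ha3, a catalytic subunit of the collagen prolyl hydroxylase, was 2938, 2102.5, 2608.8, 2994.1 and 2609.4 in proliferative and 43.3, 105.7, 163.3, 343.4 and 56.8 in hypertrophic arrays (-4.37 ± 0.28, adjusted p = 9.88e-12). Kctd4 was 1589.1, 2353.3, 2607.6, 2531.7 and 3002.9 and 133, 55.2, 168.7, 120.6 and 121.3 in the same order (-4.20 ± 0.20, adjusted p = 6e-14). Both genes fell in every animal without overlap of the zones. Loxl3, a lysyl oxidase that crosslinks collagen, differed by -3.03 ± 0.15, and Prss35, a secreted serine protease-like protein, by -3.96 ± 0.52, or -4.63 without the hypertrophic array of animal 4 and -3.28 without animal 5. Adgrb1, an adhesion receptor coupled to G proteins, differed by -4.15 ± 0.36, and Prickle1, a protein of planar cell polarity, by -3.26 ± 0.15. Kcnip1, a potassium channel subunit, was at -3.38 ± 0.34, Plk5, a polo-like kinase relative, at -3.37 ± 0.38, Fabp6, a bile acid binding protein, at -3.45 ± 0.51, and Pcp4, a calmodulin regulator, at -3.09 ± 0.39, or -3.74 without animal 2. G0s2, an inhibitor of fat breakdown, was at -3.15 ± 0.36, and Eva1a, a regulator of autophagy, at -3.16 ± 0.49. Of the called genes the 5 measured with the smallest standard errors were these: Rgs3, a regulator of G protein signalling, rose by 1.74 ± 0.12, while Srsf2, a splicing factor, Ndc1, a nuclear pore protein, Synpo and C11h3orf70 differed by -1.11 ± 0.11, -1.38 ± 0.12, -1.04 ± 0.12 and -1.002 ± 0.12. Synpo fell short of 2-fold without animal 4 (-0.92), and C11h3orf70 without animal 1, 4 or 5 (-0.94 to -0.98). The dimmer probe sets of Srsf2, Synpo and C11h3orf70 were not called, at -0.55 for Srsf2, -0.38 and 0.32 for Synpo and -0.64 for C11h3orf70.

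Markers of cells that lie beside the hypertrophic zone were higher in its arrays. Of 10 osteoclast and macrophage markers 8 rose and 9 had a higher mean, and their summed signal was 1264 to 3364 in the proliferative and 11145 to 89800 in the hypertrophic arrays. Acp5, the tartrate-resistant phosphatase of osteoclasts, was 270.2, 132.6, 39.6, 195.1 and 102.1 in proliferative and 1968.7, 1074.1, 1869.1, 26297.3 and 959.5 in hypertrophic arrays (4.15 ± 0.81, adjusted p = 0.000216). Ctsk, cathepsin K, was 375.8, 93.4, 283.8, 303.4 and 137.6 and 1120.5, 692.8, 2505.1, 28895.5 and 1123.4 in the same order (3.34 ± 0.72, adjusted p = 0.000624). Animal 4 exceeded the other hypertrophic arrays more than 10-fold in both genes. Without it the differences were 3.17 ± 0.68 (adjusted p = 0.00065) and 2.33 ± 0.54 (adjusted p = 0.00134), and 6 of the 10 markers rose. Itgb3, an integrin of osteoclasts and platelets, rose by 4.22 ± 0.59, and by 3.74 ± 0.58 (adjusted p = 1.44e-05) without that array.

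Of 8 erythroid markers 6 rose. Hbb, the beta chain of haemoglobin, was 3182.1, 2186.8, 1746.7, 2320.5 and 5117.9 in proliferative and 22234.1, 17048.1, 7485.8, 15644.2 and 19959 in hypertrophic arrays (2.51 ± 0.29, adjusted p = 2.36e-07), with signal in both zones. Of 7 leukocyte markers 6 rose, S100a9 by 3.08 ± 0.40, with summed signals of 587 to 2570 in proliferative and 2284 to 9970 in hypertrophic arrays. Of 6 osteoblast and osteocyte markers 5 rose, with and without the array of animal 4. Perichondrium and fibroblast markers rose in 5 of 14 cases and fell in 2, and 3 rose without that array or without animal 1. Muscle markers rose in 2 of 12 cases, in 1 without that array, in none with no replicate block (Myl1 adjusted p = 0.139, Myh3 adjusted p = 0.0689), in 1 with a random block, and in 8 with the 10 arrays alone in the model. Of 2 adipocyte and 2 neural markers none was called by limma; 1 adipocyte marker was higher at an unadjusted p below 0.05 and was called without animal 4. None of the osteoclast, erythroid, leukocyte or osteoblast markers was called higher in the transition zone than in the proliferative zone. Only 3.38% of all genes were, so lists this short (10, 8, 7 and 6 members) cannot be told apart from that share. List medians over that step were 0.22, -0.24, 0.03 and 0.06 in the same order. Immediate early and stress genes rose in 9 of 15 cases, Hspb1, a small heat shock protein, by 3.34 ± 0.31, Dusp1, a phosphatase of MAP kinases, by 2.29 ± 0.28, and Junb by 2.15 ± 0.39. The part of these cells, and of handling of the tissue, in the other rises was not tested.

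**Figure D5:**
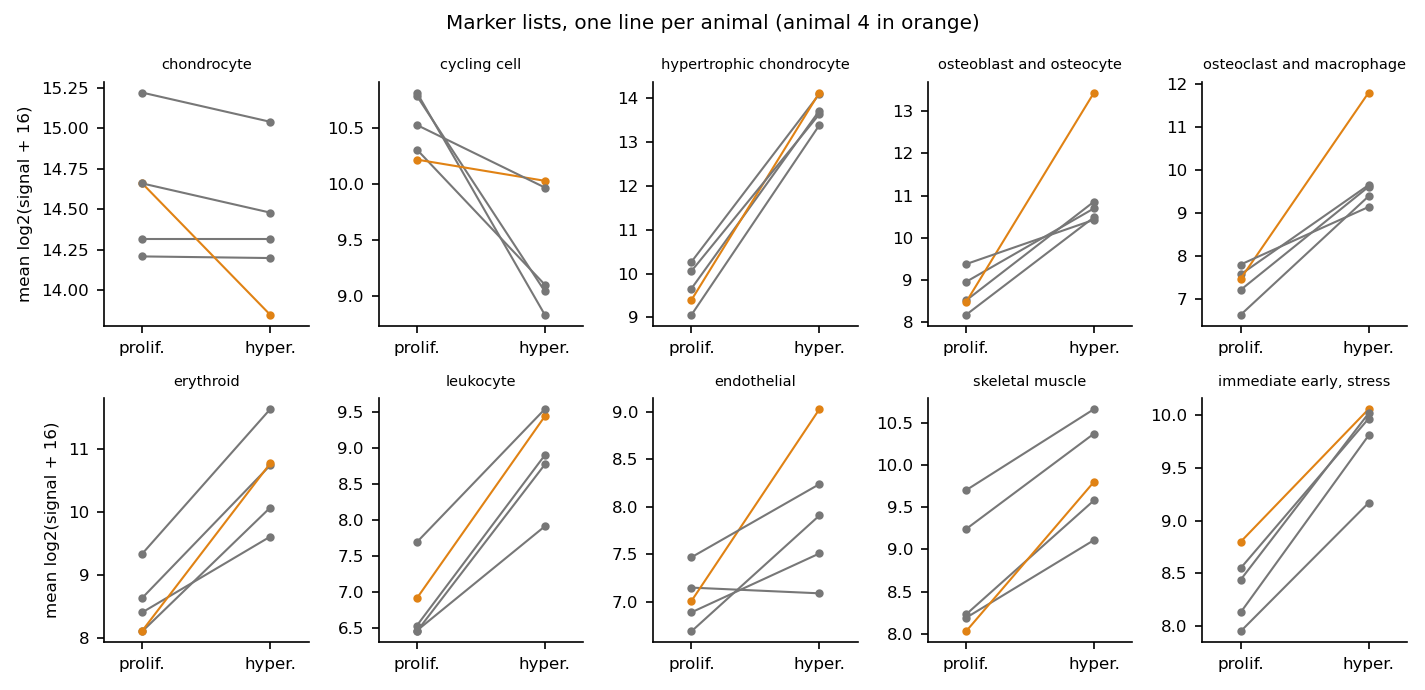
Mean log2(signal + 16) over the tested members of 10 marker lists on the y axis, in the proliferative and hypertrophic array of each animal on the x axis; each line is 1 animal, and animal 4 is orange. Osteoblast markers reach 13.44 and osteoclast markers 11.81 in the hypertrophic array of animal 4, against 10.43 to 10.86 and 9.15 to 9.66 in the other hypertrophic arrays.

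Levels in the transition zone, which lies between the compared zones, are set beside these changes. The labels of the transition arrays differ as stated, so in both steps below zone and batch cannot be told apart. Among the 1847 probe sets called higher, the transition mean lay between the zones for 1437, beyond the hypertrophic mean for 88 and on the far side of the proliferative mean for 322. The median probe set called higher had covered 35.2% of its log2 difference in the transition zone, and the median set called lower 56.8%. Genes of hypertrophy differed in this. Ihh was 3.85 (adjusted p = 1.63e-07) higher in transition than in proliferative arrays and 0.32 (adjusted p = 0.614) higher in hypertrophic than in transition arrays. For Col10a1 these steps were 4.08 (adjusted p = 5.46e-07) and 0.77 (adjusted p = 0.249), and for Pth1r 1.91 (adjusted p = 9.72e-09) and 0.45 (adjusted p = 0.0524). For these genes the first step was the larger. The steps share the transition arrays. Other genes rose mainly in the second step. Epas1 had steps of 0.89 (adjusted p = 0.0103), under 2-fold, and 3.30 (adjusted p = 1.37e-09). Igf1 had steps of 0.07 (adjusted p = 0.952) and 3.72 (adjusted p = 2.53e-05), Ero1b of -0.12 (adjusted p = 0.856) and 3.99 (adjusted p = 3.83e-08), and Cfap100 of -0.36 (adjusted p = 0.713) and 4.55 (adjusted p = 3.27e-06). Fgfr1 was lower in the transition than in the proliferative arrays, by under 2-fold, and then higher, with steps of -0.85 (adjusted p = 0.00482) and 3.03 (adjusted p = 5.36e-10). Several genes with a larger second step are also expressed in bone and marrow cells, whose markers rose over the same step. From transition to hypertrophic arrays osteoclast markers rose in 8 of 10 cases, erythroid markers in 6 of 8 and leukocyte markers in 7 of 7. The part of these cells was not tested.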

How the data were processed

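The deposited values are MAS5 signals, an intensity per probe set on a linear scale, made by the authors from 1 array per sample, per the submitters' processing notes, which name no version. Each array's trimmed mean was 500.1 to 500.2, so arrays had been scaled to one target. RNA was amplified in successive rounds from small samples, per the labels' protocols, which favours transcript 3′ ends. The number of arrays limits the precision.

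Values were taken as log2(signal + 16). Probe sets above their array's median in at least 4 of 24 arrays were tested (19237 of 31042) in limma 3.58.1 (R 4.3.3), with zone and animal in one model of all 24 arrays, empirical Bayes moderation with a trend, and 15 residual degrees of freedom. The filter passes a gene through 1 zone alone, so counts over lists describe genes measured. Replicate numbers of the labels pair the arrays and were taken as animals; in pairs of the same animal, deviations from zone means correlated at -0.036 to 0.268 (median 0.131, 5 pairs), and in pairs of different animals at a median of -0.022. The labels do not say whether litters or dissections differed.

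Probe sets were named with GEO's platform table, and symbols brought up to RefSeq GRCr8 through gene IDs; 13972 tested sets had 1 symbol, 323 several and 4942 none. Of 837 list genes 750 were on the array by name and 635 were tested; the others were not analysed here. Genes named were the 20 largest rises and falls, up to 10 members per list from the smallest adjusted p, with defining members whether called or not, and the 5 called genes of smallest standard error. Members, 24 pathway lists and 13 marker lists were chosen with earlier results of these data known. Promoters (8846 of 10567 tested genes had an entry) were searched with Python 3.11.15. The model was also run on simulated data with independent normal noise. Those data hold no array that stands apart like that of animal 4, and no result here rests on that run. The alternatives tried were the pseudocount, scaling, filter, block, arrays entering the model, trend, weights, fold rule, the mean over a gene's probe sets, and leaving out each animal or 1 array.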

Additional observations from a re-analysis of the deposited data

Results flagged for a closer look

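Values in 1 array that lay far from the other 4 arrays of its zone were sought in 114 groups of 5 arrays (the 40 genes of largest change, the marker lists and the quality measures, in each zone), by the gap to the nearest array over the whole range; chance marks about 1 in 20 such groups, and 11 were marked. All values here are log2(signal + 16), and no explanation was tested.

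In the hypertrophic array of animal 4 the mean of the osteoblast and osteocyte markers was 13.44, against 10.43 to 10.86 in the other hypertrophic arrays, that of the osteoclast and macrophage markers 11.81, against 9.15 to 9.66, and that of the perichondrium and fibroblast markers 11.67, against 9.48 to 9.93. Aldh1a3 was lowest in the same array, at 11.76, against 12.30 to 12.43. The immediate early and stress list was lowest in the hypertrophic array of animal 3, at 9.17, against 9.81 to 10.06.

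Among falling genes in the hypertrophic zone, Bmper was 4.65 in animal 2 against 7.03 to 7.63, G0s2 was 5.96 in animal 2 against 4.51 to 4.81, and Sfrp1 was 7.88 in animal 5 against 7.32 to 7.46. In the proliferative zone, Alpl was 4.66 in animal 3 against 7.23 to 7.79, Itgb3 was 6.98 in animal 2 against 7.82 to 8.15, and Gdf10 was 12.72 in animal 3 against 12.14 to 12.24.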

How the results depend on the processing

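The number of probe sets higher, hypertrophic vs proliferative, was 1847, and the number of probe sets lower, hypertrophic vs proliferative, was 1742. Outside 1.5 times those counts lay a filter at the 75th percentile of each array (1004 higher and 1136 lower, from fewer sets tested), a test against a fold of 2 (limma treat, 534 and 357) and no fold minimum (3247 and 3944). Leaving out each animal in turn gave 1677 to 1849 higher and 1637 to 1760 lower; leaving out the hypertrophic array of animal 4 gave 1831 and 1760. With no replicate block the counts were 1774 and 1700, and 6 of the 271 calls below were lost (Ndufb10, Jag1, Tyrobp, Dpt, Myl1 and Myh3, adjusted p = 0.0505 to 0.139); of list counts, the falls of the respiratory chain and Notch lists and the muscle rises then went to 0. Of 271 called list and top genes none reversed, 115 kept their call under every alternative and 156 lost it under at least 1, all under treat. A single median per array shifted all differences downward, and the low signal of dim genes limits their folds.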
